A study of Mus musculus with 6 samples.

Results

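The nuclear genes for proteins of the mitochondrial ribosome were examined in donor blood stem and progenitor cells recovered from recipients with or without ICAM-1, a surface protein of endothelial and stromal cells to which leukocyte integrins bind. The set was chosen by name, as every gene of the deposited table whose symbol begins with Mrpl or Mrps and a digit, leaving out symbols that contain -ps. This gave 76 of 23228 genes, 47 named Mrpl (large subunit) and 29 named Mrps (small subunit). Subunits below follow this naming unless stated, so Mrps18a and Mrps30 count as small although their proteins belong to the large subunit. The cells were LSK cells, bone marrow cells sorted for Sca-1 and c-Kit and against mature lineage antigens, a fraction that includes hematopoietic stem cells. Wild-type Ly5.1+ donor cells had been transplanted into Ly5.2+ recipients of strain C57BL/6, and donor-derived LSK cells were sorted 8 weeks later. One group of 3 libraries came from wild-type recipients (WT) and the other group of 3 from ICAM-1-/- recipients, so that the genotype in the labels is that of the host and both groups hold wild-type donor cells. The age of the mice, the other host cells left after the transplant and any pooling of animals are not stated. Whether each library is 1 animal is not stated beyond 3 recipients per group, and p-values measure the spread between these libraries.

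The mitochondrial ribosome is a particle of its own, apart from the ribosomes of the cytosol, and makes the handful of respiratory chain proteins that mitochondrial DNA encodes. All of its proteins come from nuclear genes, are made in the cytosol and are imported, whereas its RNAs come from mitochondrial DNA. The small subunit reads the messenger RNA, and the large subunit joins the amino acids. Many of its proteins have a counterpart in bacterial ribosomes, and others occur only in mitochondria. Quiescent blood stem cells are known to keep mitochondrial respiration low and to raise it when they are activated.

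Some promoters of these genes carry letters that nuclear regulators of mitochondrial genes are known to read. RefSeq promoters on build GRCm38.p6 were found for 67 of the 76 genes (73 promoters), and the 250 bases before each start site were searched on both strands. The NRF1 letters GCGCATGC occurred in 8 of the 73 promoters (11%), against 2.26% of 32851 promoters of all genes. The ETS or GABP letters CCGGAAG occurred in 17 (23.3%), against 6.91%, and the YY1 letters AAGATGGC in 4 (5.48%), against 1.56%. Mrpl17 and Mrpl22 matched both of the first pair of motifs and Mrpl32 matched the first and the last, and each was counted under both. A match is a description of sequence alone. The 4 most abundant genes with a match are shown because their letters can be set beside the levels that follow. Each stretch is 120 bases 5′ to 3′ on the gene's strand, with the match in capitals. The Mrpl33 stretch (chr5:31613831-31613950, plus strand) holds the NRF1 letters and the others hold the ETS letters or their reverse complement. Mrpl34 lies at chr8:71464806-71464925 (plus strand), Mrps16 at chr14:20393502-20393621 (minus strand) and Mrpl18 at chr17:12916222-12916341 (minus strand).
Mrpl33: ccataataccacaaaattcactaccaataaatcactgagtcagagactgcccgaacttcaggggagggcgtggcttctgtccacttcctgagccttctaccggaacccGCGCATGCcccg
Mrpl34: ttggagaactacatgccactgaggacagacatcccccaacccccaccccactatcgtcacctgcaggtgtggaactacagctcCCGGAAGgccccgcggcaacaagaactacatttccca
Mrps16: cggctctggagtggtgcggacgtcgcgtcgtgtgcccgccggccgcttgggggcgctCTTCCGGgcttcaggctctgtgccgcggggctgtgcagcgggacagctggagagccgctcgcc
Mrpl18: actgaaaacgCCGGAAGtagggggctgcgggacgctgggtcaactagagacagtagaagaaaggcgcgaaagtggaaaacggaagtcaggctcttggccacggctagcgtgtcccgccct

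One library lacked most of these transcripts. In WT replicate 1, 51 of the 76 genes were listed at 0 and 7 more lay between 0 and 0.1 FPKM, the unit that divides fragments by transcript length and library size. All 76 stood at 1 FPKM or more in WT replicates 2 and 3 and in ICAM-1-/- replicate 3. ICAM-1-/- replicate 1 listed 11 genes at 0 and ICAM-1-/- replicate 2 listed 6. Summed over the set, replicates 1, 2 and 3 held 479, 1991 and 2174 FPKM with WT hosts. With ICAM-1-/- hosts the sums were 1808, 1345 and 2789 FPKM. The groups thus overlapped, with the lowest sum in one WT library and the highest in one ICAM-1-/- library. The FPKM of all genes also differed, from 381085 in ICAM-1-/- replicate 2 to 806156 in ICAM-1-/- replicate 3. As a share of it, the set held 0.0767%, 0.398% and 0.409% with WT hosts. With ICAM-1-/- hosts the shares were 0.334%, 0.353% and 0.346%, each below WT replicates 2 and 3 and above WT replicate 1. The highest share was thus in WT replicate 3. In bulk samples such as these, fewer cells of a type and less RNA per cell cannot be told apart.

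**Figure D1:**
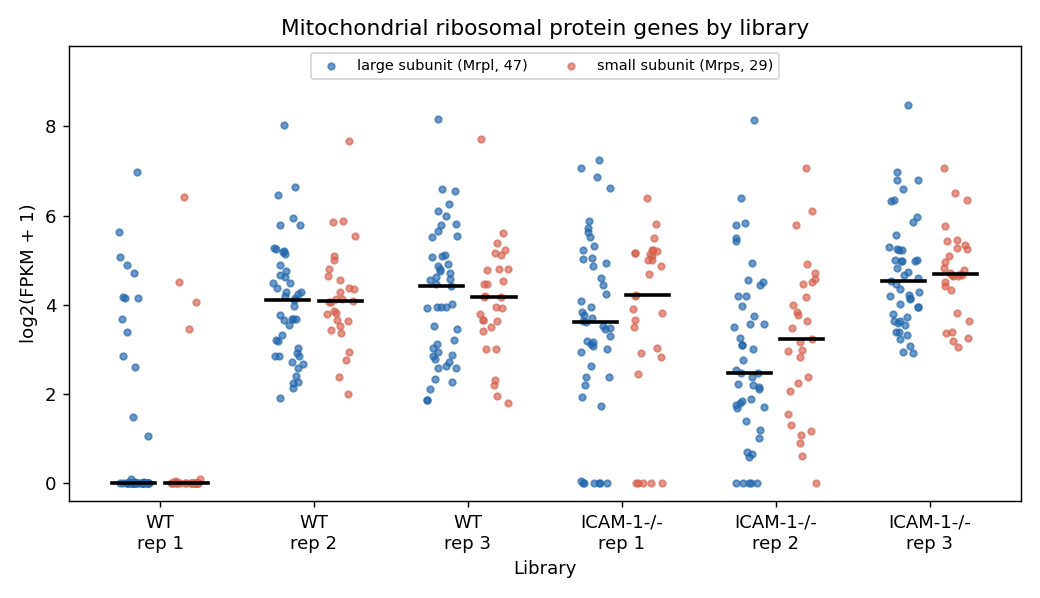
Level of each of the 76 genes as log2(FPKM + 1) in each library, with large subunit genes in blue, small subunit genes in red and black bars at the medians. The medians of WT replicate 1 lie at 0, where 51 of 76 genes are listed, and the points of the other 5 libraries overlap.

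WT replicate 1 stood apart across the whole table as well. It listed 39.6% of the 10477 genes tested at 0, against 0.735% to 10.7% in the other libraries, and 67.1% of the mitochondrial ribosomal genes. Among the 8502 tested genes whose mean lay within the range of these 76 genes, the share at 0 in that library was 32.8%. Markers of macrophages (7 of 8 in the table) summed to 1573 FPKM in WT replicate 1 and 716 FPKM in its ICAM-1-/- counterpart, against 19.1 to 99.6 FPKM in the remaining libraries, and none was at 0 in either of the first pair. Of the genes behind the sort, Ly6a, which encodes Sca-1, was listed at 0 in WT replicate 1 and at 12.4 to 91.8 FPKM elsewhere, while Kit, which encodes c-Kit, stood at 10.2 FPKM there and at 6.88 to 44.7 FPKM elsewhere. Other LSK markers were not low in that library: Ptprc at 93.2 FPKM and Mecom at 5.93 FPKM were at their highest. The summed 11 LSK markers were 173 to 448 FPKM over the 6 libraries, with 4 at 0 in WT replicate 1, 1 at 0 in ICAM-1-/- replicate 1 and none at 0 in the others. Summed neutrophil markers were 760 to 3054 FPKM in WT hosts and 605 to 2181 FPKM in ICAM-1-/- hosts, B cell markers 38.8 to 216 and 46.8 to 72.6 FPKM, erythroid markers 0.00454 to 72.9 and 4.08 to 74.3 FPKM, and megakaryocyte markers 15.1 to 60.9 and 6.37 to 56.6 FPKM. Single genes carried some of these sums. In ICAM-1-/- replicate 1, Elane at 1799 FPKM made up most of the neutrophil sum, and 4 of the 6 neutrophil markers were at 0. In WT replicate 1, Cd79b at 38.8 FPKM made up the B cell sum, and 5 of the 6 B cell markers were at 0. T cell markers stayed at or below 1.66 FPKM in every library. Stromal and endothelial markers summed to 23.2 to 46.95 FPKM in WT hosts and 4.38 to 33.6 FPKM in ICAM-1-/- hosts. Outside WT replicate 1, Pecam1 made up most of this sum. Col1a1, Col1a2, Cxcl12 and Lepr were each higher in both replicate 1 libraries than in any other. Cxcl12 stood at 8.37 FPKM (WT) and 6.04 FPKM (ICAM-1-/-) there, and elsewhere no higher than 0.489 FPKM. For Lepr the values were 1.62, 1.34 and 0.149 FPKM in that order. Pecam1 and Cdh5 differed from this, at 9.59 and 0 FPKM in WT replicate 1. The part of these cells in the values below was not tested. The ICAM-1 gene itself does not check the labels here, since the sorted cells were wild type in both groups.

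The mean level over the 76 genes, as log2(FPKM + 1), was 0.97, 4.12 and 4.17 in WT replicates 1, 2 and 3. It was 3.61, 2.97 and 4.71 in ICAM-1-/- replicates 1, 2 and 3. Set against the mean of all genes tested in the same library, the 76 genes differed by -1.30 in WT replicate 1 and by 0.44 to 1.05 in the other 5. In those 5 libraries the median member ranked between the percentiles 83.6 and 89.6 of all genes. Genes for the cytosolic ribosome were low in both replicate 1 libraries. Over 83 tested genes of cytosolic ribosomal proteins, the replicate 1 means were 2.51 with the WT host and 3.94 with the ICAM-1-/- host, and the other 4 means ran from 8.25 to 9.48. The mitochondrial set in ICAM-1-/- replicate 1 (3.61) lay between ICAM-1-/- replicates 2 and 3. For 36 tested complex I subunit genes, part of the respiratory chain, the replicate 1 means were 1.05 (WT) and 3.79 (ICAM-1-/-), and the others 3.97 to 5.83. These differences between lists were not tested.

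**Figure D2:**
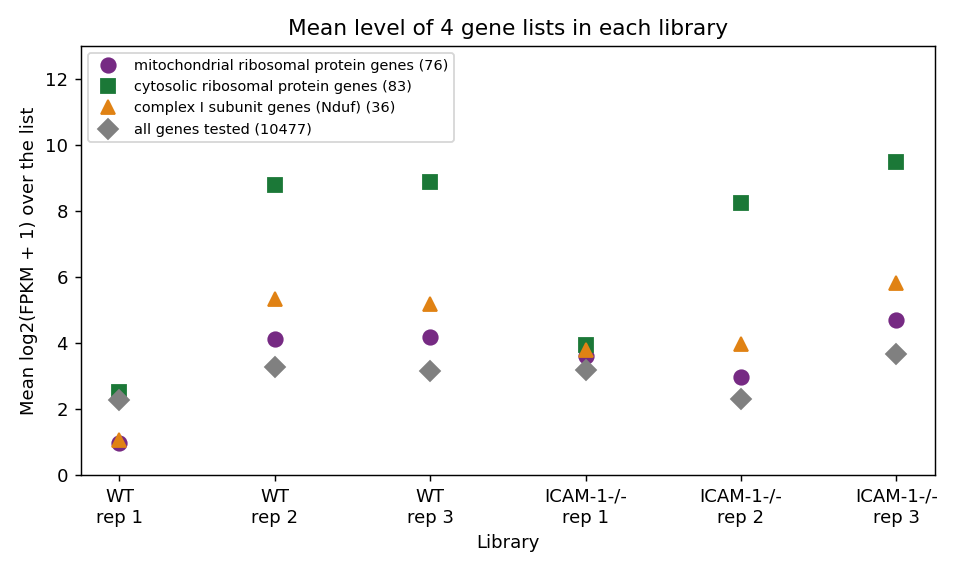
Mean log2(FPKM + 1) over 4 gene lists in each library. The mitochondrial ribosomal set stands at 0.97 in WT replicate 1 and between 2.97 and 4.71 in the other 5 libraries, while the cytosolic set is low in both replicate 1 libraries, at 2.51 and 3.94.

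Levels differed widely among the 76 genes. Means over the 6 libraries ran from 2.66 FPKM (Mrps36) to 222 FPKM (Mrpl33), with a median of 15.5 FPKM, against 7.85 FPKM for all genes tested. FPKM is a scale per length, and the levels are set side by side on that ground. Whether they compare well between genes of unlike length or with shared sequence was not tested. Mrpl33, a small protein of the large subunit with a bacterial counterpart, was the highest member in all libraries but WT replicate 1. Its values in replicates 1, 2 and 3 were 1.82, 260 and 284 FPKM for WT hosts, and for ICAM-1-/- hosts 150, 280 and 353 FPKM. Apart from WT replicate 1 its values lay within a range of 2.35-fold, and the groups overlapped. Of its 31-base words 33.3% also occur in transcripts of other genes, so reads could be shared. Mrps21, the small subunit protein next in the order, stood at 0, 201 and 210 FPKM in WT hosts and 35.6, 21.7 and 133 FPKM in ICAM-1-/- hosts (replicates 1, 2 and 3 in each, here and below). Mrpl34, of the large subunit, stood at 0, 98.4 and 96.0 FPKM in WT hosts and 134, 42.0 and 110 FPKM in ICAM-1-/- hosts.

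The levels of Mrps21 and Mrpl34 overlapped between groups, as did those of the next genes in the order. Mrpl14, part of the face of the large subunit that meets the small one, was listed at 0 in WT replicate 1 and ranged from 53.9 to 96.8 FPKM elsewhere. That range, 1.80-fold, was the narrowest of all members over the 5 libraries other than WT replicate 1. At the low end, Mrps36 stood at 0, 3.00 and 3.58 FPKM in WT hosts and 0, 0.860 and 8.52 FPKM in ICAM-1-/- hosts. Mrps36 is also known as a subunit that links the enzymes of the 2-oxoglutarate dehydrogenase complex, so its name does not settle that it belongs to the ribosome. Mrpl42, Mrpl39, Mrps15 and Mrps25 were the other 4 lowest, with means of 3.39 to 3.83 FPKM, and Mrpl42 was listed at 0 in 3 libraries. The values of neighbours at this end of the order overlapped. Across the 76 genes, the mean level and the length of the longest coding transcript in GENCODE M21 had a Spearman correlation of -0.35, a description over genes that share the same libraries.

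**Figure D3:**
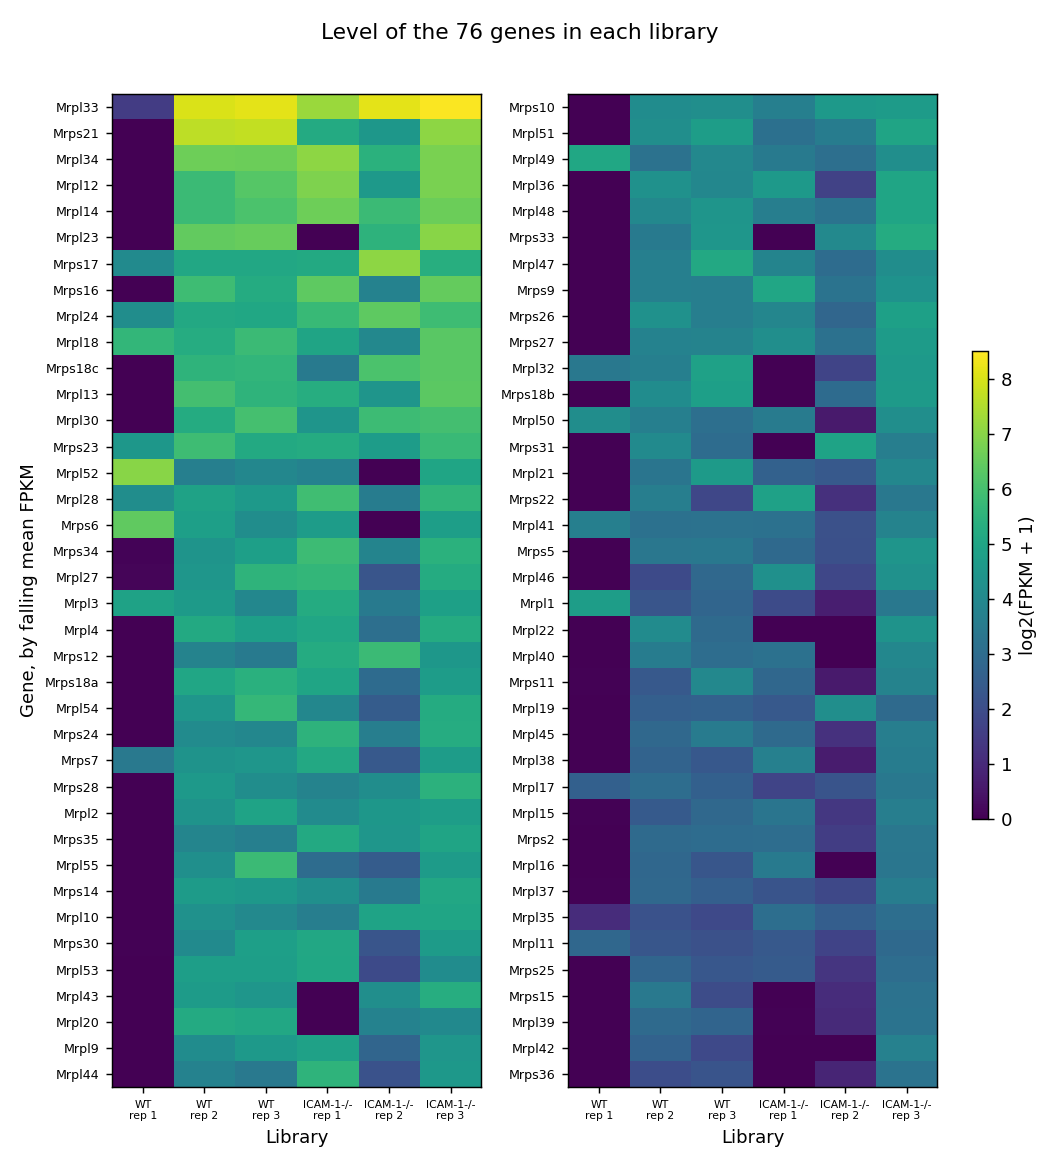
Level of every gene as log2(FPKM + 1), 1 column per library and 1 row per gene, ordered by mean FPKM from Mrpl33 at the top left to Mrps36 at the bottom right. The WT replicate 1 column is dark for most genes, and Mrpl52, Mrps6, Mrpl49 and Mrpl1 are brightest there.

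The question of the design is whether donor LSK cells differ after 8 weeks in a host without ICAM-1. No mitochondrial ribosomal gene did by the test used. Of 76 genes, all of which passed the filter of a mean of at least 1 FPKM, 0 were called higher and 0 lower in ICAM-1-/- (limma, Benjamini-Hochberg adjusted over 10477 genes, threshold 0.05; smallest adjusted p among members 1.00). The background was the same, with 0% of all genes called in either direction. At an unadjusted p under 0.05 there were 2 members, Mrps12 and Mrps35, against 54 genes or 0.515% of all tested. With the replicate number as a block, 0 members were called (smallest limma adjusted p 0.824), where 13 genes or 0.124% were called overall. In that fit 11 members had an unadjusted p under 0.05, against 2.65% of all genes.

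The direction of the set turned on a single library. Differences are given as log2(FPKM + 1) in ICAM-1-/- less that in WT. Of the 76, 57 were positive and 19 negative, with a median of 0.75, against a median of 0.08 and 53.8% positive for all genes tested. Without WT replicate 1 the median was -0.31 and 25 of 76 were positive, against -0.15 and 38.3% for all genes. Within replicates 2 and 3 alone the median was -0.29 with 23 positive, beside -0.30 and 30.6% for all genes. The members thus lay close to the whole table in that subset. In replicate 2 of ICAM-1-/-, 62 of 76 genes (81.6%) were lower than in either WT library, against 77.1% of all genes tested. In replicate 3 of ICAM-1-/-, 55 genes (72.4%) were higher than in either, against 69.8% of all, so both shares were near those of the whole table.

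**Figure D4:**
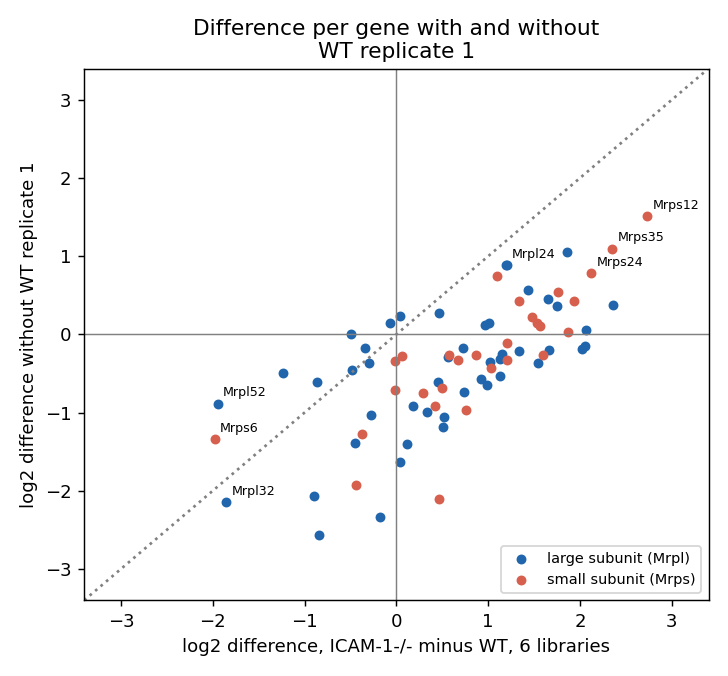
Difference of each gene between the groups in log2(FPKM + 1), positive where ICAM-1-/- is higher, over 6 libraries (horizontal) and without WT replicate 1 (vertical); the dotted line marks equal values. Of the 76 genes 57 lie right of the vertical line at 0 and 25 lie above the horizontal one.

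The gene of smallest p was Mrps12, the counterpart of bacterial S12, which sits at the decoding centre of the small subunit. It stood at 0, 13.1 and 10.4 FPKM in WT hosts and at 36.3, 54.3 and 21.8 FPKM in ICAM-1-/- hosts. Every ICAM-1-/- library lay above every WT library. The difference was 2.73 ± 1.05 (SE; limma adjusted p = 1.00), and 1.49 within replicates 2 and 3. Mrps35, a small subunit protein without a bacterial counterpart, also had groups that did not overlap, at 0, 13.6 and 11.6 FPKM in WT hosts and 34.6, 21.3 and 30.0 FPKM in ICAM-1-/- hosts. Its difference was 2.35 ± 1.05 (SE; limma adjusted p = 1.00), and 0.95 within replicates 2 and 3. Mrps24, the counterpart of bacterial S3, stood at 0, 16.1 and 14.3 FPKM in WT hosts and 44.0, 11.4 and 37.4 FPKM in ICAM-1-/- hosts, and ICAM-1-/- replicate 2 lay within the WT range. Annotated exons of Mrps24 overlap those of Urgcp on the same strand, so reads could be shared.

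Mrpl24, a large subunit protein with a bacterial counterpart near the exit of the peptide tunnel, was the one gene of this group that WT replicate 1 did not list near 0. It stood at 16.96, 34.2 and 32.6 FPKM in WT hosts and at 51.9, 82.7 and 56.5 FPKM in ICAM-1-/- hosts, without overlap. The difference was 1.19 ± 0.68 (SE; limma adjusted p = 1.00), 0.88 without WT replicate 1 and 1.01 within replicates 2 and 3, so its size moved less than that of Mrps12 or Mrps35. Mrpl46, a mitochondria-specific protein of the large subunit, stood at 0, 2.75 and 6.34 FPKM in WT hosts and 18.05, 2.496 and 18.5 FPKM in ICAM-1-/- hosts. Its exons overlap those of Mrps11 on the opposite strand, and Mrps11 stood at 0.0337, 4.21 and 14.5 FPKM in WT hosts and 6.11, 0.534 and 12.998 FPKM in ICAM-1-/- hosts. The counting of strands is not stated, so reads of the pair cannot be told apart, nor those of Mrpl24 and Rrnad1, Mrpl14 and Tmem63b, Mrps25 and Nr2c2 or Mrpl19 and Gcfc2, which overlap in the same way. Mrpl14 stood at 0, 54.5 and 68.0 FPKM in WT hosts and 96.8, 53.9 and 95.3 FPKM in ICAM-1-/- hosts, a difference of 2.36 ± 1.37 (SE; limma adjusted p = 1.00) that was 0.23 within replicates 2 and 3.

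None of the 6 genes of smallest p with a negative difference was called (limma adjusted p = 1.00 each). Mrpl32, whose protein is processed by a mitochondrial protease before it joins the large subunit, stood at 9.46, 11.8 and 28.1 FPKM in WT hosts and 0, 2.38 and 23.4 FPKM in ICAM-1-/- hosts. Its difference was -1.85 ± 1.16 (SE), -0.79 without ICAM-1-/- replicate 1 and -1.09 within replicates 2 and 3. Mrps6, of the small subunit, stood at 84.4, 26.9 and 17.2 FPKM in WT hosts and 24.8, 0 and 26.4 FPKM in ICAM-1-/- hosts, with a difference of -1.98 ± 1.24 (SE). The difference was -0.40 without ICAM-1-/- replicate 2. Its highest value was in WT replicate 1 and its lowest in ICAM-1-/- replicate 2, and the other 4 libraries overlapped. Mrps6 exons overlap those of Slc5a3 on the same strand, and 33.8% of its 31-base words occur in other genes.

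Mrpl52, a mitochondria-specific protein of the large subunit, stood at 125, 11.7 and 14.3 FPKM in WT hosts and 12.6, 0 and 30.6 FPKM in ICAM-1-/- hosts. WT replicate 1 was far above every other library, and the groups overlapped. The difference was -1.95 ± 1.31 (SE), -0.89 without that library and -0.49 without ICAM-1-/- replicate 2. Mrpl1, the counterpart of bacterial L1 on the stalk where used transfer RNA leaves, stood at 25.3, 3.74 and 5.85 FPKM in WT hosts and 2.83, 0.638 and 9.51 FPKM in ICAM-1-/- hosts. Here too WT replicate 1 was the highest and the other libraries overlapped. Mrpl50 stood at 16.9, 11.6 and 7.66 FPKM in WT hosts and 10.5, 0.516 and 17.5 FPKM in ICAM-1-/- hosts. Mrpl22, the counterpart of a protein that lines the peptide tunnel, was above 0 in 3 libraries only, at 16.3 and 6.66 FPKM in WT replicates 2 and 3 and 19.6 FPKM in ICAM-1-/- replicate 3. Of its 31-base words 43.2% occur in other genes, the share being 39.9% for Mrps36 and 26% for Mrpl42.

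**Figure D5:**
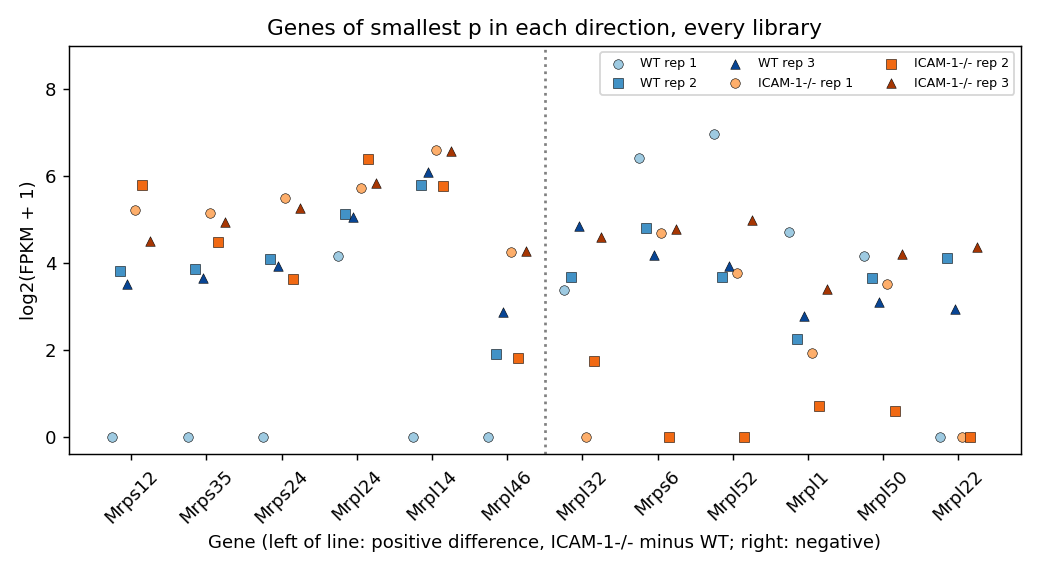
Level of the 12 genes of smallest p as log2(FPKM + 1) in every library, 6 with a positive difference left of the dotted line and 6 with a negative one right of it. Mrps12, Mrps35 and Mrpl24 show all ICAM-1-/- points above all WT points, while Mrps6, Mrpl52, Mrpl1 and Mrpl50 have their lowest point in ICAM-1-/- replicate 2.

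Groups that did not overlap were found for 5 genes with ICAM-1-/- higher (6.58% of 76), against 338 genes or 3.23% of all tested. None was found with ICAM-1-/- lower, against 0.849% of all tested. Beside Mrps12, Mrps35 and Mrpl24 these were Mrps17 and Mrpl35, named after their values were seen. Mrps17, a small subunit protein with a bacterial counterpart, stood at 15.8, 33.0 and 33.5 FPKM in WT hosts and 34.7, 133 and 39.3 FPKM in ICAM-1-/- hosts. Its ICAM-1-/- replicates 1 and 3 lay little above the WT values and replicate 2 far above. Mrpl35, of the large subunit, stood at 1.10, 3.39 and 2.66 FPKM in WT hosts and 7.41, 4.81 and 7.44 FPKM in ICAM-1-/- hosts, a difference of 1.204 ± 0.86 (SE; limma adjusted p = 1.00). By this choice ICAM-1-/- replicate 2, which was low for most of the set, lay above the WT libraries in all 5. It exceeded both WT replicates 2 and 3 in 10 genes (13.2%), against 14.3% of all genes tested. These were the same 5 with Mrpl10, Mrpl19, Mrps10, Mrps18c and Mrps31. In Mrpl19, of the large subunit, the levels were 0, 4.97 and 5.21 FPKM in WT hosts and 4.18, 17.4 and 6.68 FPKM in ICAM-1-/- hosts. Mrps31 stood at 29.3 FPKM in ICAM-1-/- replicate 2 and was listed at 0 in both replicate 1 libraries.

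Set against WT replicates 2 and 3 alone, 3 genes (3.95%) were lower in every ICAM-1-/- library, against 2.92% of all genes tested: Mrpl20, Mrps18a and Mrps21. The same 5 genes as above (6.58%) were higher in every ICAM-1-/- library, against 5.38% of all genes tested. Mrpl20, of the large subunit, stood at 36.0 and 33.2 FPKM in WT replicates 2 and 3 and at 0, 12.5 and 15.2 FPKM in ICAM-1-/- hosts. Its difference was -0.84 ± 1.51 (SE; limma adjusted p = 1.00) over 6 libraries and -2.56 without WT replicate 1. For Mrps21 the difference was 0.46 ± 1.74 (SE; limma adjusted p = 1.00) over 6 libraries and -2.10 without WT replicate 1. These genes were chosen after their values were seen, and WT replicate 1 listed all 3 at 0.

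The subunits were alike in direction. The median difference was 0.56 over 47 large subunit genes, 33 of them positive, and 1.04 over 29 small subunit genes, 24 of them positive. Without WT replicate 1 the medians were -0.36 and -0.27, and within replicates 2 and 3 they were -0.34 and -0.15. The difference between the subunits was not tested. In WT replicate 1, 30 of 47 large and 21 of 29 small subunit genes were listed at 0. In ICAM-1-/- replicate 2, 5 large and 1 small subunit genes were. The summed FPKM of the large over that of the small subunit genes was 2.63, 1.66 and 2.01 for WT hosts against 1.77, 1.64 and 1.94 for ICAM-1-/- hosts, so the groups overlapped. In the split that follows, Mrps18a and Mrps30 count as large subunit genes, and Mrpl55 and Mrps36 are left out. In the bacterial-type set the median was 1.01 for 29 large subunit genes and 1.15 for 16 small subunit genes. Among genes specific to mitochondria it was 0.51 for 19 large and 0.89 for 10 small subunit genes. All 4 medians were negative without WT replicate 1, at -0.30, -0.26, -0.61 and -0.19 in that order.

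The stalk of the large subunit, built on Mrpl10 and carrying copies of Mrpl12, brings translation factors to the ribosome, and Mrpl12 is also known to bind the mitochondrial RNA polymerase. Mrpl12 stood at 0, 53.9 and 75.0 FPKM in WT hosts and 115, 22.5 and 110 FPKM in ICAM-1-/- hosts. ICAM-1-/- replicates 1 and 3 lay above both nonzero WT libraries and replicate 2 below them. Its difference was 2.06 ± 1.45 (SE; limma adjusted p = 1.00), and -0.33 within replicates 2 and 3. Mrpl10 stood at 0, 18.6 and 15.1 FPKM in WT hosts and 11.3, 29.5 and 31.01 FPKM in ICAM-1-/- hosts, with ICAM-1-/- replicate 1 below WT replicates 2 and 3 and the others above. Mrpl11, which lies at the base of the stalk, was above 0 in every library, at 6.18, 3.82 and 3.31 FPKM in WT hosts and 4.20, 2.27 and 6.58 FPKM in ICAM-1-/- hosts. Its difference was -0.07 ± 0.86 (SE; limma adjusted p = 1.00). Unlike Mrpl10 and Mrpl12, it was among the 18 members at 1 FPKM or more in WT replicate 1.

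The mitochondrial ribosome has 3 relatives of bacterial S18. Mrps18c takes the place of S18 itself, Mrps18b lies elsewhere in the small subunit, and Mrps18a is found in the large subunit despite its name. WT replicate 1 listed all 3 at 0. Mrps18a stood at 31.3 and 40.6 FPKM in WT replicates 2 and 3 and at 31.1, 6.90 and 24.8 FPKM in ICAM-1-/- hosts. Mrps18b stood at 16.5 and 26.7 FPKM in the WT pair and at 0, 6.82 and 24.1 FPKM in ICAM-1-/- hosts. For Mrps18c the values were 45.7 and 47.7 FPKM in the WT pair and 10.3, 67.4 and 80.1 FPKM in ICAM-1-/- hosts. In ICAM-1-/- replicate 2 the 3 genes thus split, with Mrps18c above and the other two below the WT pair. Their differences over 6 libraries were 0.76 ± 1.32, -0.44 ± 1.46 and 1.60 ± 1.42 (SE) for Mrps18a, Mrps18b and Mrps18c, with a limma adjusted p of 1.00 each. Without WT replicate 1 all 3 were negative, at -0.97, -1.92 and -0.26 in that order. Of the 31-base words of Mrps18b and Mrps18c, 31.4% and 30.4% also occur in other genes, and none of those of Mrps18a do.

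Other genes of mitochondrial translation gave no call either. Among mitochondrial ribosomal proteins under other names (Dap3, Gadd45gip1, Chchd1, Ptcd3, Aurkaip1, Ict1 and Mrp63), 0 of 7 passed, with 4 positive differences and a median of 0.09, which was -0.058 without WT replicate 1. Ict1, a peptidyl-tRNA hydrolase built into the large subunit, stood at 0, 19.7 and 24.2 FPKM in WT hosts and 19.95, 173 and 37.3 FPKM in ICAM-1-/- hosts, with replicate 2 the highest library. Chchd1, of the small subunit, had 0, 24.2 and 12.96 FPKM in WT hosts against 31.6, 5.94 and 63.0 FPKM, and the groups overlapped. Of 24 mitoribosome assembly factors 0 passed, 15 being positive with a median of 0.75, and the median was 0.18 without WT replicate 1. Noa1, a GTPase of small subunit assembly, stood at 0, 11.3 and 8.28 FPKM in WT hosts and 16.2, 11.8 and 20.7 FPKM in ICAM-1-/- hosts, without overlap. Groups without overlap, all with ICAM-1-/- higher, were found for 2 of the 24 factors, against 3.23% of all genes tested. Gtpbp5, a GTPase of large subunit assembly, had 0, 7.86 and 8.79 FPKM in WT hosts against 12.6, 37.3 and 6.06 FPKM, so its highest value was again in replicate 2.

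Among 15 tested mitochondrial translation factors 0 passed (10 positive, median 0.44, and 0.05 without WT replicate 1). Lrpprc, which stabilizes mitochondrial messenger RNAs, stood at 0.0501, 12.4 and 10.4 FPKM in WT hosts and 20.004, 25.3 and 18.7 FPKM in ICAM-1-/- hosts, again without overlap. Its difference was 2.03 ± 1.03 (SE; limma adjusted p = 1.00), and 0.88 within replicates 2 and 3. Lrpprc was the 1 factor of the 15 without overlap, with ICAM-1-/- higher as in 3.23% of all genes tested. The release factor gene Mtrf1 stood at 8.76, 4.52 and 1.44 FPKM in WT hosts and 0, 0 and 3.08 FPKM in ICAM-1-/- hosts. Of 19 genes for mitochondrial aminoacyl-tRNA synthetases and amidotransferase subunits, which charge the transfer RNAs, 0 passed (12 positive, median 0.15, and -0.14 without WT replicate 1). Of 14 genes of mitochondrial transcription and RNA processing 0 passed (11 positive, median 0.30, and -0.27 without that library). Of 10 tested regulators of mitochondrial biogenesis 0 passed (5 positive, median 0.09, and -0.13 without it). Among these Myc stood at 0.0147, 27.2 and 25.8 FPKM in WT hosts and 27.2, 11.03 and 38.7 FPKM in ICAM-1-/- hosts, so that the groups overlapped. The 13 messenger RNAs of mitochondrial DNA, which this ribosome translates, were searched under symbols beginning with mt-. None was found among the deposited genes under these symbols, so they were not analysed here.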

How the data were processed

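RNA of sorted LSK cells was sequenced in 6 libraries, 3 per group, assigned from the sample titles. Per the labels' protocols, Trizol served for RNA extraction and an Illumina TruSeq RNA kit for the libraries. The authors deposited FPKM values for each library. The submitters' processing notes name cutadapt, TopHat2 2.0.11 and Cufflinks 2.1.1, and no genome build, annotation or filter was found in the sources used here. Each library holds 24 to 111 positive values under 0.001 FPKM, so whole reads were not recovered, depth is unknown and no counting interval is given; an exact 0 is reported as listed at 0, and library values are given in place of means.

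Values were analysed as log2(FPKM + 1) with limma 3.58.1 in R 4.3.3, across the 10477 genes that averaged 1 FPKM or more over the 6 libraries. The model held the group alone, variances were moderated toward a trend on the mean, and p-values were adjusted by Benjamini and Hochberg's method with a threshold of 0.05. This scale understates the change of low genes. Named genes followed a rule: the 6 members of smallest p per direction, the 5 of highest and 5 of lowest mean, the stalk and S18 genes, and up to 2 members of each pathway list; Mrps17, Mrpl35, Mrpl19, Mrps31, Mrpl20 and Mrps11 were named after their values were seen. The members, lists and alternatives were chosen with earlier results of these data known. Same-numbered libraries deviated together from their group means (correlations 0.35, 0.13 and 0.31), so the numbers were treated as pairs inferred from the data, although the number 2 library of WT and the number 3 library of ICAM-1-/- gave 0.31 as well, and WT replicate 3 with ICAM-1-/- replicate 2 gave 0.15, above the 0.13 of the number 2 pair. Shared 31-base words and exon overlaps came from GENCODE M21, which served for names and lengths only.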

Additional observations from a re-analysis of the deposited data

How the results depend on the processing

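No mitochondrial ribosomal gene was called in either direction under any of the 17 alternatives run, each in limma, with 0 to 11 members at an unadjusted p under 0.05. Counts over all genes moved from 0 to 4 with library weights, to 13 with the replicate number as a block and to 3 within replicates 2 and 3, and ran from 0 to 1 when 1 library was left out; none of these calls was a member. The block fit is an alternative that rests on pairs inferred from the data. It called no member.

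The median over the 76 genes (0.75) was positive under every pseudocount, filter, scaling, trend, weight and block setting, from 0.31 to 1.57. By design it stayed at 0.75 without a trend, without a filter and with the block. It turned to -0.29 within replicates 2 and 3 and to -0.091 with values of 0 taken as missing, where Mrpl22 and Mrpl42 could not be fitted. The large subunit median turned to -0.34 and -0.25 under these settings, and the small subunit median to -0.15 in the first. Leaving out 1 library at a time gave -0.31 to 1.34 for all, -0.36 to 1.29 for the large and -0.27 to 1.71 for the small subunit genes, and the only negative values came without WT replicate 1. Median-of-ratios scaling shifted the median of all genes by 0.16 and quantile normalization by -0.13. Relative to the median of all genes the members lay at 0.67 as reported, 0.63 and 0.46 under these scalings, and 0.02 with library weights, where 75.2% of all genes were positive against 53.8%. The cause of these turns was not tested, except that WT replicate 1 takes no part in the settings without it.

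Of the 26 named genes, 9 kept their direction under all 17 alternatives, Mrpl22 did under the 16 in which it could be fitted, and 16 turned in at least 1. The filter, trend and block settings leave the difference of a fitted gene unchanged by design. Its direction could therefore not turn in them, and they add nothing to these counts. Mrps6 kept its sign but stood at -0.053 with library weights. With library weights the differences turned to 0.56 for Mrpl52, 0.35 for Mrpl1, 0.43 for Mrpl50, -1.10 for Mrps21, 0.33 for Mrpl42, 0.25 for Mrps36, 0.52 for Mrpl11 and -0.43 for Mrps18a. Within replicates 2 and 3 they turned to -1.90 for Mrps21, -0.51 for Mrpl34, -0.33 for Mrpl12, -0.36 for Mrps25, 0.13 for Mrpl11 and -1.36 for Mrps18a. With 0 as missing they turned to -2.10 for Mrps21, -0.19 for Mrpl34, -0.27 for Mrps25, -0.97 for Mrps18a and -0.26 for Mrps18c. Scaling turned Mrps25 to -0.061 (quantile), Mrps36 to 0.11 and Mrpl11 to 0.14 (median of ratios). Leaving out single libraries gave -1.58 to 0.22 for Mrpl50, -0.145 to 3.18 for Mrpl33, -2.10 to 1.76 for Mrps21, -0.19 to 3.13 for Mrpl34, -0.27 to 1.12 for Mrps25, -1.27 to 0.44 for Mrps15 and -1.39 to 0.24 for Mrpl39. It gave -1.52 to 0.35 for Mrpl42, -0.95 to 0.67 for Mrps36, -0.36 to 0.24 for Mrpl11, -0.97 to 1.72 for Mrps18a, -1.92 to 0.83 for Mrps18b and -0.26 to 2.54 for Mrps18c. FPKM keep no depth, so counting error could not be set apart from the spread between libraries.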
